A study of Mus musculus with 884 samples.

Results

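The loci of 6 core pluripotency genes, Pou5f1, Sox2, Nanog, Dppa3, Sall4 and Lin28a, were followed through single-cell DNA replication profiles of mouse stem cells. Each locus was the 80 kb bin that holds the gene in the mm9 build, together with 400 kb either side. The 6 gene bins and their flanks make up 56 of the 30890 bins of chromosomes 1 to 19. The genes were chosen by name, by a rule that sets no threshold on a replication value.

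Single-cell Repli-seq sorts 1 cell from G1 or from a part of S phase, amplifies and sequences its DNA, and calls each stretch of the genome replicated or not yet replicated. The 884 cells came from CBMS1, a female embryonic stem cell line of CBA/MsM strain background, and from female epiblast stem cells (EpiSCs) of strain C57BL6. CBMS1 cells were taken in 2i/LIF medium (d0), after 2 days of conversion to epiblast-like cells (d2), and at d3, d4, d5, d6 and d7, when those cells had been aggregated in floating culture without added factors, a course that the labels describe as ending in neurectoderm. EpiSCs were kept in Activin/FGF medium. They differ from CBMS1 cells in strain, culture and state, and these cannot be told apart.

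Pou5f1 (Oct4), Sox2 and Nanog encode transcription factors that bind one another's genes and sustain the pluripotent state. Sall4 encodes a zinc-finger factor of the same network, Lin28a encodes an RNA-binding protein that blocks maturation of let-7 microRNAs, and Dppa3 (Stella) encodes a maternal-effect protein that shapes DNA methylation and marks naive cells and germ cells. Sox2 stays active in neural progenitors, whereas Pou5f1 and Nanog are switched off as cells leave pluripotency. Replication timing is the order in which large domains of the genome are copied in S phase, and active, gene-rich domains tend to be copied early. RNA was not measured here.

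How far a cell had gone through S phase is given by its replication score, the part of its genome already copied, in percent. Shares of cells were compared among the S-phase cells with scores of 40 to 70%, called window cells here, in which early domains are mostly copied and late domains mostly not. There were 59 such cells for d0, 35 for d2, 13 for d3, 18 for d4, 20 for d5, 21 for d6 and 26 for EpiSC, and more for d7 than for any other group. Their mean scores lay between 52.3% and 57.1%. At least 26813 bins were called in each of them. No label named separate cultures, so every group was 1 sample, no test between groups was possible, and cells were not treated as replicates. Intervals are exact Clopper-Pearson 95% intervals and cover counting error only. A share that differed by 30 points or more between groups is called changed. In 7 window cells, 3 at d0, 1 at d4 and 3 at d7, the calls did not follow the profile of the other cells of their group, and values are given with and without them where they matter. The 3 such cells at d0 were also the only window cells there corrected with 1 of the G1 controls.

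The bins were chr17:35600001-35680000 for Pou5f1, chr3:34480001-34560000 for Sox2, chr6:122560001-122640000 for Dppa3, chr6:122640001-122720000 for Nanog, chr2:168560001-168640000 for Sall4 and chr4:133520001-133600000 for Lin28a. Dppa3 and Nanog lie in adjacent bins, and their flanks share 10 of 11 bins, so a count that holds both does not count independent loci. In the RefSeq gene order, Gdf3 precedes Dppa3 and Slc2a3 follows Nanog. Pou5f1 stands between H2-Q10, of the MHC class I family, and Tcf19. Sox2 stands between Dnajc19 and Atp11b, Sall4 between Atp9a and Zfp64, and Lin28a between Dhdds and Crybg2.

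The promoters of Nanog and Sox2 are shown. Of the 4 members with a promoter window, these 2 held the letters marked below, and both genes are textbook targets of the factor that Pou5f1 encodes. The promoters shown are the 250 bases before a transcript start in RefSeq (GRCm38.p6, chr6:122707239-122707488 and chr3:34649745-34649994, both on the plus strand). Coordinates of that build do not compare with the mm9 bins. Capitals mark the 7 letters TTTGCAT, or their reverse complement ATGCAAA, most of the octamer to which POU factors bind.
Nanog: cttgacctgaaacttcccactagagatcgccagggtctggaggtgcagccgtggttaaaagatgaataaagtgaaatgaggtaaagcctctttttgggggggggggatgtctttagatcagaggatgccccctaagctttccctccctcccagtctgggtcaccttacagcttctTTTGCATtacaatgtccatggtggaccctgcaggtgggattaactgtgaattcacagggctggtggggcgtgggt
Sox2: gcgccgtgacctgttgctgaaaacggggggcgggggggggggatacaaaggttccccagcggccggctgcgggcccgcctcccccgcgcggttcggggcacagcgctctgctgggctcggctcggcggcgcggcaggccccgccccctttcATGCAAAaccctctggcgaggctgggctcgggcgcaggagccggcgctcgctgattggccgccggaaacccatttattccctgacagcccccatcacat
These letters stood 75 bases before this start of Nanog and, on the other strand, 99 bases before that of Sox2. Windows for Pou5f1 and Lin28a did not hold them, and 4.12% of the 32851 promoter windows did on either strand. No window was matched for Dppa3 or Sall4. Calls at 80 kb do not resolve a promoter, and the match is a description of the sequence only.

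All 6 loci were copied early in embryonic stem cells. At d0 the share of window cells with the bin replicated was 96.4% for Pou5f1 (54 of 56 cells), 98.3% for Sox2 (58 of 59), 94.9% for Nanog and for Dppa3 (56 of 59 each), 98.2% for Sall4 (56 of 57) and 96.6% for Lin28a (56 of 58). Without the 3 d0 cells off the profile, the shares were 96.4% for Pou5f1, 98.2% for Nanog and Dppa3, and 100% for the other 3 loci. From d2 to d6 no locus was below 84.6%, the value of Sox2 at d3 (11 of 13 cells). In EpiSCs all 6 loci were replicated in 26 of 26 window cells, for which the interval reaches down to 86.8%.

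**Figure D1:**
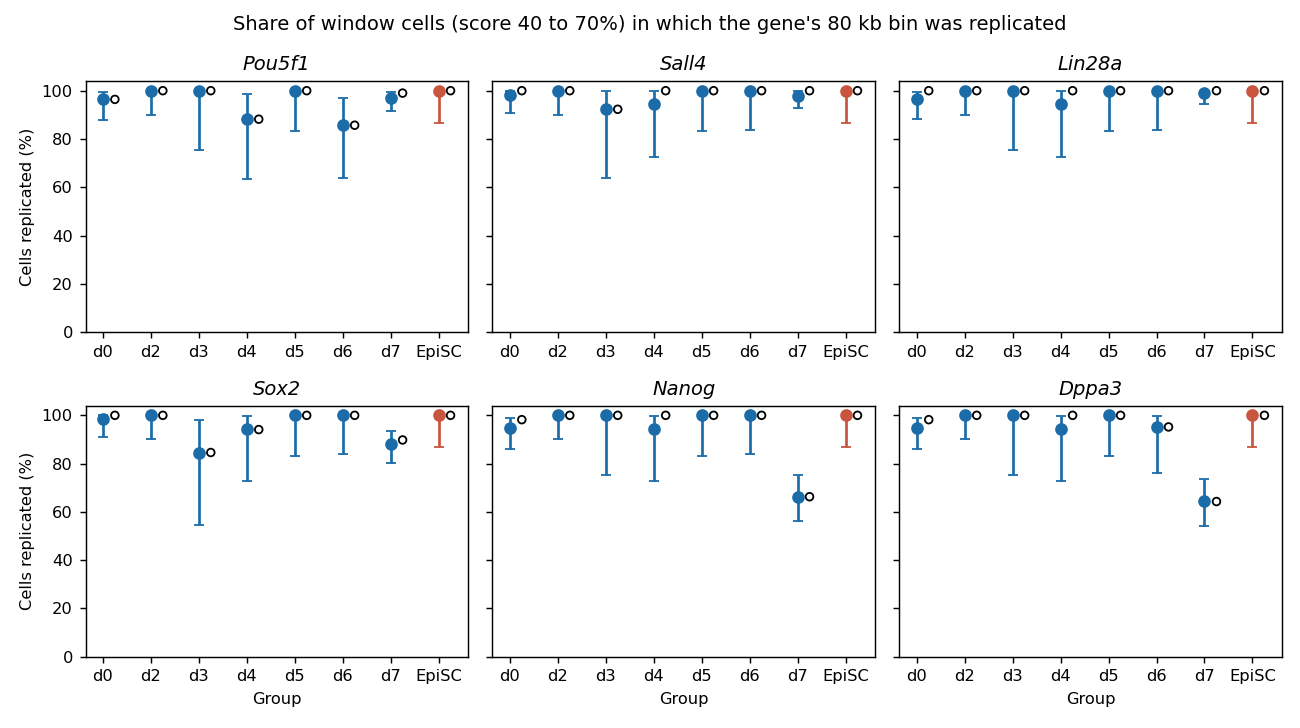
Percentage of window cells (scores of 40 to 70%) with the gene's 80 kb bin replicated (y axis) in each group (x axis), 1 panel per gene. Filled points are all window cells with exact 95% binomial intervals, blue for CBMS1 days and red for EpiSCs, and open circles leave out the 7 cells off the profile. Nanog (66.3%) and Dppa3 (64.4%) at d7 are the lowest shares.

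At d7 the Nanog and Dppa3 loci were replicated in a smaller share of window cells than on any earlier day. The Nanog bin was replicated in 67 window cells and not in 34, a share of 66.3% (interval 56.2 to 75.4%). The Dppa3 bin was replicated in 65 and not in 36, a share of 64.4% (54.2 to 73.6%). At d0 the interval was 85.9 to 98.9% for both bins. These intervals cover counting error within 1 sample per group and are no test between d0 and d7. Sox2 was replicated in 88.1% of d7 cells (89 replicated, 12 not), Pou5f1 in 97% (97 and 3), Sall4 in 98% (99 and 2) and Lin28a in 99% (99 and 1). Set among all autosomal bins at d7, 50.8% had a lower share than Nanog and 49.7% a lower share than Dppa3, against 65.6% for Sox2 and at least 80.6% for the other 3 loci. At d0, 76% of bins had a lower share than either.

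From d0 to d7 the share of Nanog fell by 28.6 points and that of Dppa3 by 30.6 points, which puts Dppa3 just inside and Nanog just outside the 30-point rule. Without the cells off the profile the differences were -31.9 and -33.9 points, and both loci passed. The other 4 loci moved by between -10.2 points (Sox2) and 2.45 points (Lin28a). Over all autosomal bins, 7.71% were lower by 30 points or more at d7 than at d0 and 7.75% were higher; among bins replicated in at least 90% of d0 cells, 7.36% were lower. The single changed locus among 6 is therefore not far from the background of the genome.

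From d0 to EpiSC no locus changed, with differences between 1.69 and 5.08 points, against a background of 6.34% of bins lower and 7.36% higher. From EpiSC to d7, the difference was -33.7 points for Nanog and -35.6 for Dppa3, whereas it was -11.9 for Sox2, -3 for Pou5f1, -1.98 for Sall4 and -1 for Lin28a. The background for that comparison was 5.74% of bins lower and 4.9% higher, and 2.95% lower among bins at 90% or more in EpiSCs. The comparisons of d0 with d7 and of EpiSC with d7 share the d7 cells.

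No locus changed between d0 and d2, where 8.52% of bins moved by 30 points or more in either direction, nor between d2 and d3 (8.33%), d3 and d4 (10%), d4 and d5 (6.08%) or d5 and d6 (7.59%). Differences over these steps ran from -15.4 points, for Sox2 between d2 and d3, to 11.8 points, for Pou5f1 between d4 and d5. The step from d6 to d7 was the only successive one in which a locus changed. Nanog was replicated in 21 of 21 cells at d6, and its share at d7 differed by -33.7 points. Dppa3 was replicated in 20 of 21, and its share differed by -30.9 points. In that step 2.2% of all bins moved by 30 points or more. Of the 9935 bins at 90% or more in d6, 31 (0.312%) fell that far, and 5 of these 31 were bins of the Dppa3 and Nanog flanks.

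The G1 control used for the mappability correction differed between these days for most cells. All 21 window cells of d6 and 22 window cells of d7 were corrected with the same control. Among those 22 cells Nanog was replicated in 18 (81.8%, interval 59.7 to 94.8%) and Dppa3 in 15 (68.2%, 45.1 to 86.1%), differences from d6 of -18.2 and -27.1 points that do not reach the rule. Among the other 79 d7 cells Nanog was replicated in 62% and Dppa3 in 63.3%. By control these were 38 of 63 cells for Nanog and 40 of 63 for Dppa3 (60.3% and 63.5%), 5 of 5 for both, with a mean score of 63%, and 6 of 11 and 5 of 11 (54.5% and 45.5%). The part of the control in the difference between d6 and d7 was not tested. The origin of the cells moved the d7 values less: Nanog was replicated in 23 of 35 cells deposited in a previous series (65.7%) and in 44 of 66 cells of the present one (66.7%), and Dppa3 in 65.7% and 63.6%. At d0, 49 of 50 cells of the previous series had both bins replicated, against 7 of 9 cells of the present series, or 6 of 6 without the cells off the profile.

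Around Nanog and Dppa3, at least 1 end of the stretch had a lower share than the genes on each day before d7, while the left end was at 100% on d2 and d3. The 12 bins from 400 kb left of the Dppa3 bin to 400 kb right of the Nanog bin span 960 kb, chr6:122160001-123120000. At d0 their shares ran from 89.8% to 96.6%. At d2 the right end stood at 71.4% while the 8 bins up to 80 kb right of Nanog were at 100%. At d4 the right end was at 44.4%, and at d5 the left end was at 70%, while the right end stood higher on d3 (84.6%) and d5 (90%). At d6 both ends were low, 57.1% on the left and 42.9% on the right, while the Nanog bin and the 2 bins to its right were at 100%. At d7 the ends had 38.6% and 34.7%, and the highest shares of the stretch, 66.3%, lay at the Nanog bin and 160 kb to its left. In EpiSCs 10 of the 12 bins were at 100% and the right end at 92.3%. From d0 to d7, 9 of the 12 bins were lower by 30 points or more, and none of the other 44 bins of the 6 loci were. The values at the ends of d4, d5 and d6 rest on 18, 20 and 21 cells.

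**Figure D2:**
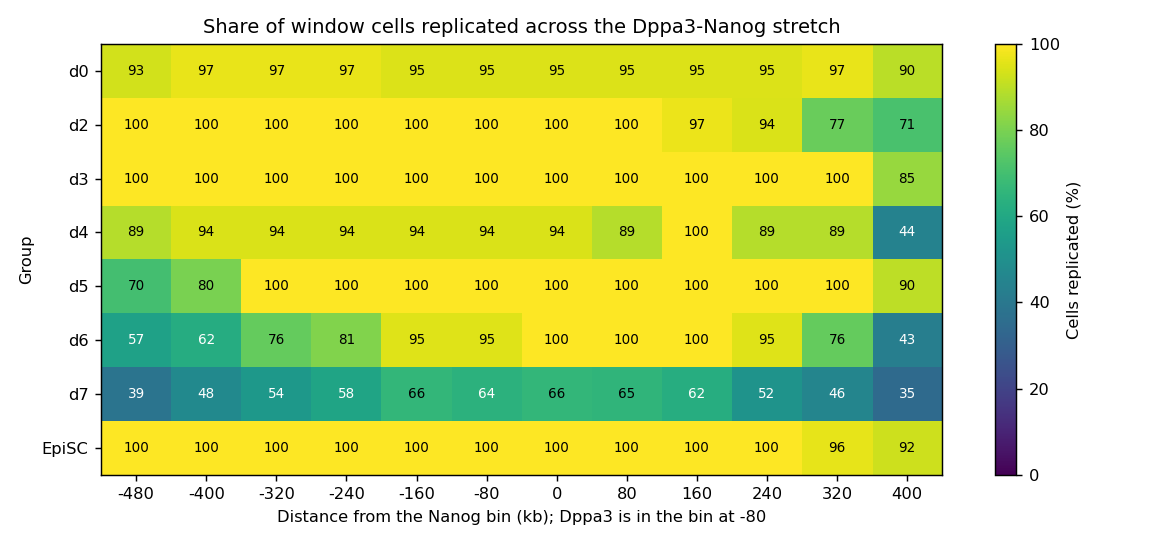
Percentage of window cells replicated (colour and printed value, 0 to 100%) in each of the 12 bins around Dppa3 and Nanog (x axis, kb from the Nanog bin) for the 8 groups (y axis). The d6 row is at 100% in the middle and at 57.1% and 42.9% at its ends, the d7 row is at or below 66.3% throughout, and the EpiSC row stays at or above 92.3%.

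Cell by cell, the whole stretch was replicated in 83.1% of window cells at d0 (49 of 59), in 25 of 35 cells of d2, 11 of 13 of d3, 6 of 18 of d4, 13 of 20 of d5 and 8 of 21 of d6. The share was 23.8% for d7 (24 cells, interval 15.9 to 33.3%) and 92.3% for EpiSCs (24 of 26). No cell from d2 to d6 and no EpiSC had the whole stretch unreplicated, 1 cell did at d0, and 26 did at d7 (25.7%, interval 17.6 to 35.4%). By G1 control, these were 3 of the 22 d7 cells corrected with the control shared with d6 and 23 of the other 79. The remaining 51 d7 cells were partly replicated. In 47 of these 51 the replicated bins formed 1 unbroken run. The run or runs held the Nanog bin in 43 cells and the Dppa3 bin in 41, whereas 15 held the left end and 11 the right end. A bin in the middle of the stretch lies in more of the possible runs than a bin at its end.

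At d6 all 13 partly replicated cells had 1 run, and all 13 held Nanog while 4 held the left end and 1 the right end. At d2 all 10 partly replicated cells held the left end and none the right end. At d4, 10 of 12 such cells held the left end and 2 the right end, while at d5 only 1 of 7 held the left end and 5 the right end. Adjacent bins are not independent calls, and how the authors turned reads into calls was not given in the sources used here.

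**Figure D3:**
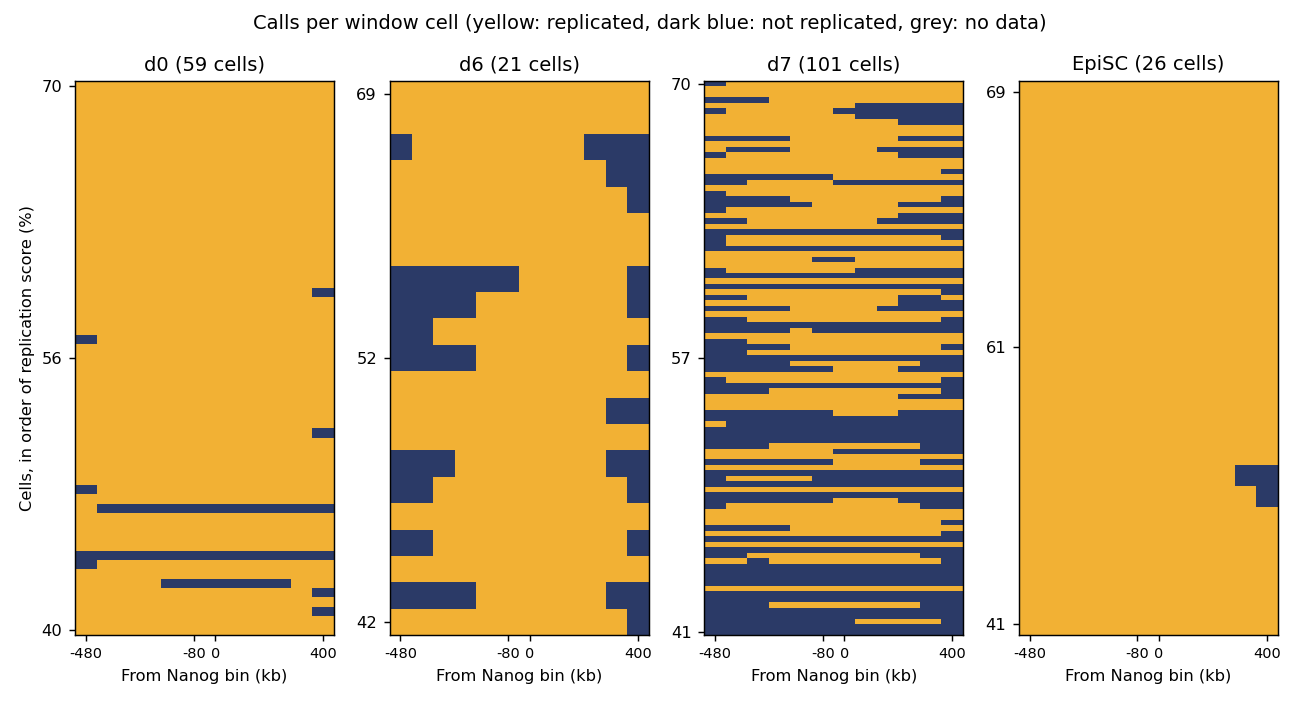
Calls in the 12 bins (x axis, kb from the Nanog bin) for every window cell of d0, d6, d7 and EpiSC, 1 row per cell in order of replication score (y axis, percent). Yellow is replicated and dark blue is not; the blue bins of d6 cells reach in from the ends, in 1 cell as far as the Dppa3 bin, whereas 26 d7 cells are blue throughout and 24 yellow throughout.

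Within d7 the share rose with the score of the cell, except between the classes of 20 to 40% and 40 to 50%. Nanog was replicated in 2 of 22 cells with scores under 20%, 12 of 23 at 20 to 40%, 12 of 25 at 40 to 50%, 24 of 38 at 50 to 60%, 31 of 38 at 60 to 70% and 71 of 73 above. Of the 22 cells under 20%, 10 had scores of 5% or more and the rest were lower. The whole stretch was unreplicated in 12 of 25 cells at scores of 40 to 50%, 10 of 38 at 50 to 60% and 4 of 38 at 60 to 70%. Lin28a, by contrast, was already replicated in 22 of 23 d7 cells at scores of 20 to 40%. The score at which 50% of cells had replicated a bin, its midpoint, came from a logistic fit over S-phase cells and was 41.5% for Nanog and 43.5% for Dppa3 at d7. Nanog had a midpoint of 14% at d2, 11.5% at d4, 16.5% at d6 and 6.5% in EpiSCs, and at d0, d3 and d5 it lay below the lowest cell fitted (13.5%, 6.17% and 7.99%). Dppa3 was at 17% at d2, 11.5% at d4, 23.5% at d6 and 6.5% in EpiSCs. At d7, 40.1% of bins had an earlier midpoint than Nanog, against 13.2% at d6. The fit spread the d7 calls at Nanog over 30.8 points of score between 25% and 75% of cells. The spread was also 30.8 points at Dppa3 and at Sox2, so it did not set Nanog apart. It was 22 points at Pou5f1, 4.39 at Sall4 and 1.1 at Lin28a, the narrowest spread that the fit allowed. Few cells lay under a score of 20%, 6 of the fitted d0 cells and 10 of the fitted d7 cells, so midpoints there are rough.

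**Figure D4:**
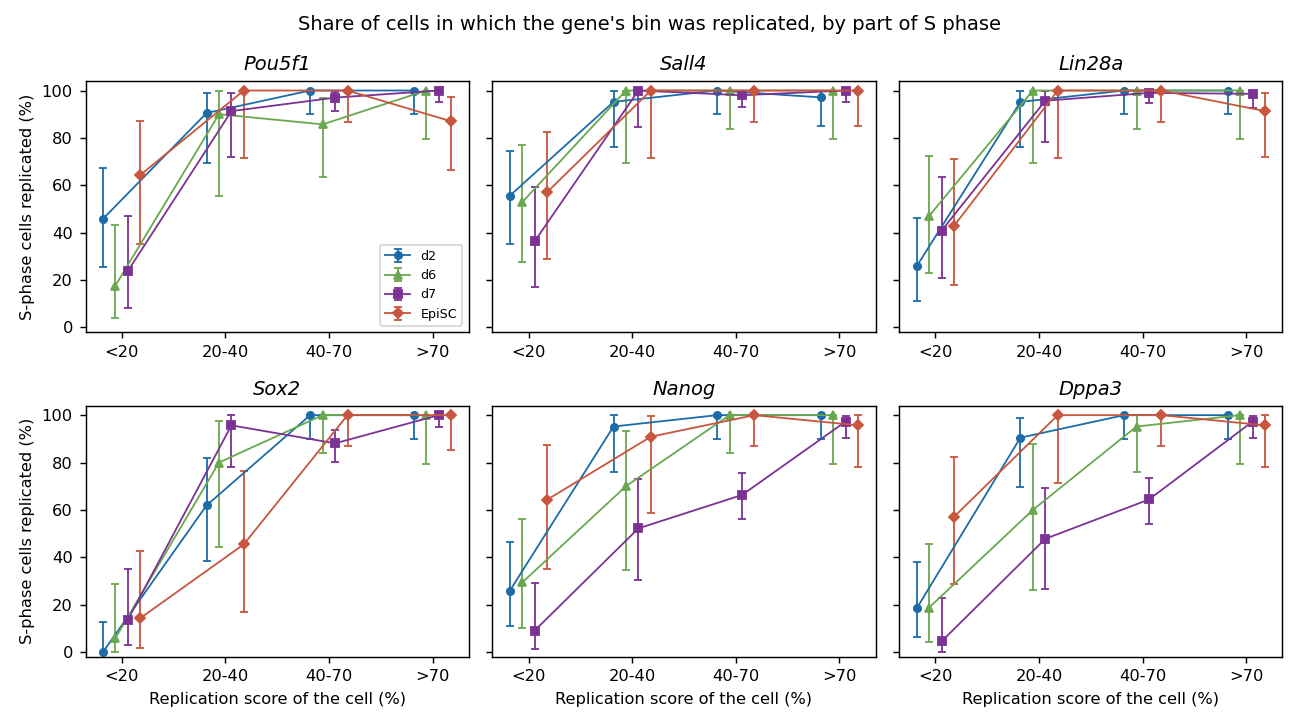
Percentage of all S-phase cells with the gene's bin replicated (y axis) by class of replication score (x axis, percent), 1 panel per gene, for d2, d6, d7 and EpiSC, with exact 95% binomial intervals. Nanog and Dppa3 at d7 run below the other groups up to the 40 to 70% class, and Sox2 rises later than Sall4 and Lin28a at d2 and in EpiSCs.

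The loss at d7 was not shared by all loci of a cell. Of the 34 d7 window cells with Nanog unreplicated, 33 had a call at Pou5f1, Sox2, Sall4 and Lin28a, and in 24 of these 33 all 4 were replicated. Nanog and Dppa3 mostly went together: 31 cells had neither bin replicated, 3 lacked only Nanog and 5 lacked only Dppa3. Over all d7 S-phase cells, Lin28a was replicated and Nanog not in 51 cells, and the reverse occurred in 0. Sall4 was ahead of Nanog in 54 cells and behind in 3, Pou5f1 ahead in 49 and behind in 5, and Sox2 ahead in 40 and behind in 5.

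Sox2 was copied early in every group, but its midpoint was later than those of the other 5 loci in every group except d7, and except Dppa3 at d6. No d2 cell with a score under 20% had the Sox2 bin replicated (0 of 27, which by the exact interval allows up to 12.8%), whereas Sall4 was replicated in 15 of the same 27. This class includes cells with scores below 5%, and 18 d2 cells had scores of 5 to 20%. At scores of 20 to 40% Sox2 was replicated in 13 of 21 cells at d2 and in 5 of 11 EpiSCs, against 20 of 21 and 11 of 11 for Sall4. Its midpoint was a score of 19.5% for d0, 27% for d2, 32.5% for d3, 23% for d4, 28% for d5, 22% for d6, 17% for d7 and 26% for EpiSC. Between 13% (d7) and 28.2% (d3) of bins were earlier. In cells that had replicated only 1 of 2 loci, Sox2 was usually the one behind. That did not hold against every locus at d6, where Sox2 was behind Pou5f1 in 5 cells and ahead in 5. Against Dppa3 at d6 it was behind in 4 and ahead in 5. Against Sall4, Sox2 was behind in 23 cells and ahead in 2 at d2, behind in 10 and ahead in 0 at d6, and behind in 13 and ahead in 1 in EpiSCs. Against Nanog it was behind in 10 cells and ahead in 2 at d0 and behind in 14 and ahead in 0 at d2. At d7 that order was turned, with Sox2 ahead of Nanog in 40 cells and behind in 5. Of the discordant pairs that involved Sox2, it was the one behind in 97.5% at d2, 71.4% at d6 and 39.5% at d7. The d7 value counts both Nanog and Dppa3, which are adjacent, and Sox2 was ahead of Dppa3 in 43 cells and behind in 4. Against the remaining loci Sox2 was still mostly behind at d7. It was behind Pou5f1 in 16 cells and ahead in 6, behind Sall4 in 17 and ahead in 1, and behind Lin28a in 18 and ahead in 2. A cell can enter several pairs.

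The window share of Sox2 at d7, 88.1%, differed from that at d6 (21 of 21) by -11.9 points. It differed with the G1 control. Sox2 was replicated in 59 of 63 d7 cells under the most used control (93.7%), in 20 of 22 under the control shared with d6 (90.9%), in 3 of 5 under another and in 7 of 11 under the last (63.6%). By origin it was 33 of 35 cells of the previous series (94.3%) and 56 of 66 of the present one (84.8%). Of the 12 d7 cells with Sox2 unreplicated, 9 also lacked Nanog. The part of the control in this value was not tested.

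The flanks of Sox2 were less evenly early than the gene. At d2 the bins 160 to 400 kb to the left were replicated in 71.4% to 80% of cells while Sox2 was at 100%, and at d4 the bin 320 kb to the left was at 61.1% (11 of 18). EpiSCs showed the same side low, with 73.1% at 400 kb (19 of 26) and 100% from 80 kb left of the gene to the right end. At d3 the right end was at 53.8% (7 of 13). At d0 all 11 bins were between 94.9% and 98.3%, and at d7 between 82.2% and 90.1%. None of these bins changed by 30 points from d0 to d7 or from d0 to EpiSC.

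**Figure D5:**
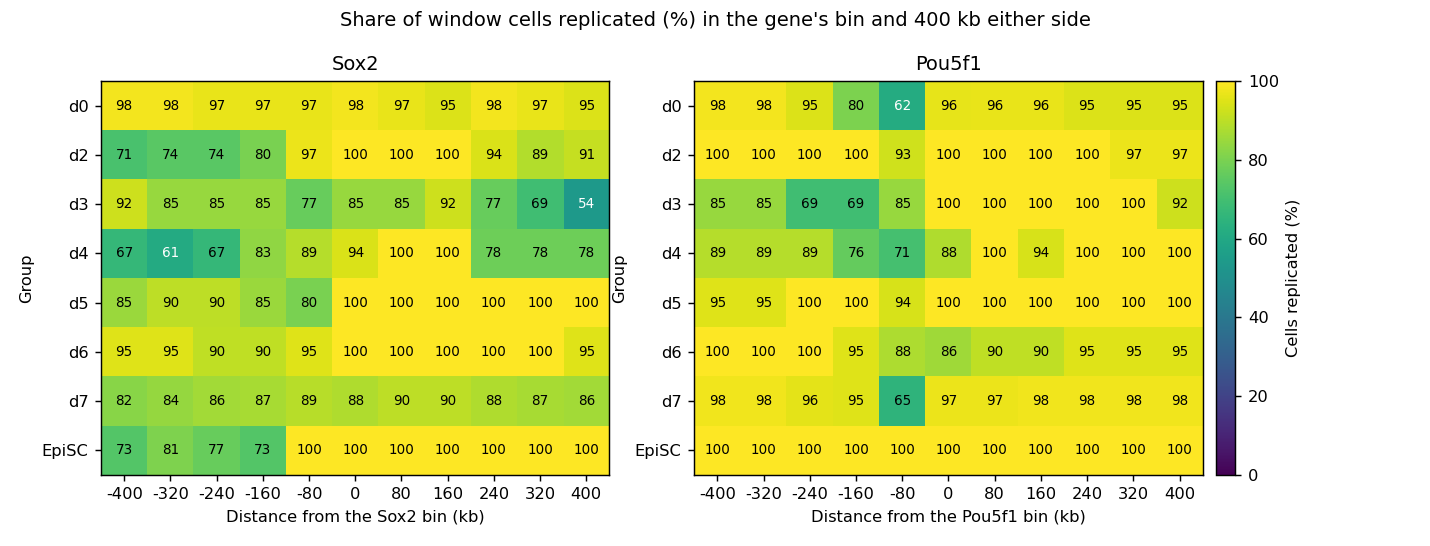
Percentage of window cells replicated (colour and printed value) in the 11 bins around Sox2 (left) and Pou5f1 (right), by distance from the gene's bin (x axis, kb) and group (y axis). The left flank of Sox2 is lower than the gene at d2, d4 and in EpiSCs, and the bin 80 kb left of Pou5f1 runs from 61.7% at d0, 65.2% at d7 and 70.6% at d4 to 94.1% at d5 and 100% in EpiSCs.

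Pou5f1 was replicated in 85.7% of window cells at d6 (18 of 21, interval 63.7 to 97%) and in 88.2% at d4 (15 of 17), and in at least 96.4% in the other 6 groups. The intervals of d4 and d6 overlap those of all other groups. Its midpoint lay below the lowest cell fitted for d0, d2, d3 and d4, and was 9% for d5, 17.5% for d6, 13% for d7 and 6.5% for EpiSC. The bin 80 kb to its left, chr17:35520001-35600000, varied among the CBMS1 days. It was replicated in 61.7% of d0 cells (29 of 47), 92.9% of d2 cells (26 of 28), 84.6% of d3 cells (11 of 13), 70.6% of d4 cells (12 of 17), 94.1% of d5 cells (16 of 17), 87.5% of d6 cells (14 of 16) and 65.2% of d7 cells (58 of 89), and in 26 of 26 EpiSCs. It was higher than at d0 by 30 points or more at d2, at d5 and in EpiSCs. It was called in 253 of 293 window cells (86.3%), against 288 for the Pou5f1 bin. The neighbouring H2-Q genes are near-identical copies that differ between strains, and the part of mapping in these values was not tested.

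By the share of window cells, Sall4 and Lin28a were the most uniformly early loci. Lin28a was replicated in every window cell of d2, d3, d5, d6 and EpiSC and in 17 of 18 cells at d4, and Sall4 was below 94.4% at d3 only (12 of 13 cells). Without the cells off the profile, Sall4 was at 100% in every group but d3 (92.3%) and Lin28a at 100% in all 8. Over the 11 bins of each locus, the mean share was 97.4% for Sall4 and 98.3% for Lin28a at d7, and no bin of either changed from d0 to d7. The lowest flank bins were 83.3% for Sall4 at d4, 240 kb to the left, and 84.6% for Lin28a in EpiSCs, 400 kb to the left. The d7 midpoints were 9% for Sall4 and 7.5% for Lin28a. Midpoints were later on some other days, 14.5% for Sall4 at d3 and 14% for Lin28a at d2 and d5. In each of these cases that of Pou5f1 was earlier. The order of Sall4 and Lin28a varied among the groups. Sall4 was ahead in 10 cells and behind in 3 at d2, ahead in 5 and behind in 0 at d5, and ahead in 6 and behind in 2 in EpiSCs. It was ahead in 1 and behind in 7 at d3, and ahead in 0 and behind in 2 at d0. At d7 it was ahead in 3 and behind in 2, and at d4 and d6 ahead in 1 and behind in 0 each.

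In G1, before replication, the bins were called replicated in 2 of 70 cells for Pou5f1, 0 of 72 for Sox2, 3 of 72 for Nanog, 2 of 72 for Dppa3, 4 of 70 for Sall4 and 4 of 71 for Lin28a. The 7 G1 cells with any of these calls had scores of 3.86% to 10.6%, against a median of 0.157% over all G1 cells.

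Few bins of the genome had shares close to those of Nanog in all 8 groups. Among 29544 bins with a share in every group, 22 were within 10 points of Nanog in all 8 groups (0.0745%), of which 18 lay more than 2 Mb from any of the 6 genes, and 27 were within 10 points of Dppa3. For Lin28a the number was 5358 and for Sall4 5976, for Sox2 1800 and for Pou5f1 1424. These 4 loci stayed high in every group, where many bins have like shares. No such count was made for other bins that changed, so the numbers do not show how unusual the Nanog pattern is. The most similar distant bin to both Nanog and Dppa3 was chr13:21200001-21280000, with a mean absolute difference of 1.33 points from Nanog and 2.17 from Dppa3. That bin was replicated in 96.6% of cells at d0, 100% at d6 and in EpiSCs, and 75.2% at d7. For Pou5f1 it was chr17:30480001-30560000, with a mean absolute difference of 0.104 points. Adjacent bins share their calls to a large part, so these numbers count bins and not domains.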

How the data were processed

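Per the labels' protocols, the DNA of each sorted cell was amplified (SeqPlex kit) and read as single 80-base reads. The submitters' processing notes name cutadapt, BWA 0.7.10-r789, Picard and the mm9 build, without their settings. The deposited calls per 80 kb bin were made by the authors from each cell after mappability correction with a merged G1 control, per the file headers. They are 1 for replicated, -1 for not and 0 for no data, and were counted here as classes. The deposited replication score is a fraction per cell, made by the authors from the autosomal bins and printed here in percent. Read depth per cell was not used here; the number of called bins stands in for it.

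The 7 G1 cells whose labels named different days entered no group. The 101 d7 and 59 d0 window cells included 35 and 50 cells first deposited in a previous series. Genes were placed on mm9 bins by their known positions, with no mm9 annotation at hand to check them; RefSeq tables of GRCm38.p6 gave gene order and promoters only. Of the 6 genes, 4 had a promoter window. Other pluripotency genes were not analysed here.

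A share leaves out cells without a call, and a bin entered a comparison where 50% or more of the window cells of both groups had one. The midpoint came from a grid fit of the call on the score, with 1% of calls taken as wrong and scores from 5 to 95%. Cells off the profile had an area under the curve below 0.8 when their calls ranked the bins by the mean of the group's other window cells. For each gene the most similar bin over the 8 groups more than 2 Mb from any member, and the number of bins within 10 points in all groups, were given by rule; where several bins tied, or the bin lay on chromosome 18, none was named. Steps were tested on simulated data. Python 3.11.15, numpy 2.4.6, pandas 2.3.3, scipy 1.17.1 and matplotlib 3.10.9 were used. The rule names the genes and uses no measured value, but the members, the lists and most alternatives were chosen with earlier results of these data known.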

Additional observations from a re-analysis of the deposited data

How the results depend on the processing

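The number of the 6 loci changed from d0 to d7, 1 as reported, was 0 with scores of 45 to 65%, the mean over 3 bins, a threshold of 40 points or only cells of the present series. It was 2, Nanog and Dppa3, with the mean over 11 bins, a threshold of 20 points, only cells of the previous series, cells matched in score, the cells off the profile left out, or the midpoint in place of the share. The difference of Nanog ran from -39.1 to -11.1 points and that of Dppa3 from -39 to -14.1 points over these settings, both negative throughout; the smallest came from only cells of the present series, where d0 had 9 window cells. The number from d0 to EpiSC stayed at 0 in every setting run. The number from EpiSC to d7, 2 as reported, was 1 with scores of 30 to 80% or matching in score and 0 with a threshold of 40 points. The number from d6 to d7, 2 as reported, was 1 with scores of 45 to 65%, scores of 30 to 80% or matching in score, and 0 with the mean over 11 bins, a threshold of 40 points, or only cells of the G1 control that both days share; this last setting, and all settings for d6 to d7, were added after seeing the data. In the other settings these counts were the same. Comparisons with EpiSC or d6 could not be run on cells of the previous series, which held none of either. Among window cells alone, Sox2 was behind Sall4 in 0% of discordant cells at d0 (1 cell), and Nanog was behind Sox2 in 100% (2 cells), the reverse of the order over all S cells; many pairs had no discordant window cell. Of 96 midpoints under 5% of wrong calls or all scores, 10 moved by more than 5 points. The cause of these shifts was not tested. No paired analysis was possible because the result comes from no test and replicate numbers only name cells. The precision is limited by 13 to 21 window cells on each day from d3 to d6 and by 1 sample per group.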
